A study of Oryza sativa with 12 samples.

Results

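Transcripts of the enzymes that make jasmonate, a lipid-derived plant hormone, were followed in rice seedlings before and after 6 h of cold. The names AOS1, AOS2, AOC, OPR1 and OPR7 were looked up as symbol or synonym in the gene annotation, and a probe set was taken where it is paired with only 1 gene and where the name fits only 1 gene. This gave 3 genes with 1 probe set each, AOS1 (LOC4334233), AOS2 (LOC4332121) and AOC (LOC4333201), out of 57258 probe sets in all, 22436 of them paired with 1 gene. OPR1 and OPR7 each fit 2 genes and were left out of the member count. The 3 probe sets of the genes that share those names are described by gene ID after the members.

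Jasmonate is made from a plastid fatty acid that a lipoxygenase first oxidises. Allene oxide synthase (AOS, of the cytochrome P450 family CYP74) and then allene oxide cyclase (AOC) turn the oxidised fatty acid into oxo-phytodienoic acid (OPDA), and in peroxisomes an OPDA reductase (OPR) and rounds of beta-oxidation finish the hormone. Jasmonate joined to isoleucine is sensed by COI1 F-box proteins, which lead to the breakdown of JAZ repressors. The pathway is known for responses of leaves to wounding, and rice plants that lack AOC are known as the mutants cpm2 and hebiba.

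RNA came from shoot and leaves of seedlings at the 4-leaf stage, with 1 GeneChip array for each of 12 samples. In the cultivar ZH11 there were 2 independent OsMYB30 overexpression lines, OE2 and OE28, and 1 ZH11 control line; in the cultivar Huayang there were 2 independent homozygous osmyb30 mutant lines, mutant 1 and mutant 2, and 1 Huayang wild type line. OsMYB30 encodes a MYB transcription factor, and the promoter behind the overexpression and the kind of mutation were not given in the sources used here. Each of the 6 lines was sampled after 6 h at 4 °C and before cold, so every overexpression and mutant group holds 2 arrays and every control and wild type group holds 1. No array came from plants kept warm for the same 6 h, so cold cannot be told apart from elapsed time or time of day. A change with cold below means 6 h at 4 °C against before cold. Nothing in the labels says how many plants a sample pooled, and p-values measure only the spread between these samples.

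Array medians of the deposited intensities lay between 34.6 and 37.15, and the number of arrays limits the precision. The leaf markers were bright, with RBCS, the small subunit of Rubisco, at 21972.9 to 23160.3 on all arrays. The highest intensity of the series, controls left out, was 23434.8. Whether changes of probe sets so near the top of the scale show in full was not tested. Of 8 leaf and shoot marker genes 0 were called for cold over all lines, where 35.1% of all probe sets were called, and 1 (CAB2R) was called lower with cold in the Huayang lines. The sum of 7 root marker genes lay at 1745.3 to 2165.5 at 6 h and 1848.1 to 2395.8 before cold in the ZH11 lines, against 2797.1 to 4052.2 and 3435.2 to 3696.4 in the Huayang lines, with LSI2 at 10.6 or below on every array. Of 6 root markers tested, 1 was called higher and 2 lower with cold in the ZH11 lines and likewise over all lines (median changes -0.40 and -0.31). At 6 h 2 were lower in the ZH11 than in the Huayang lines. Their median difference was -0.14 between the mutants and the wild type at 6 h, and 0.12 between the overexpression lines and their control. The root marker NAAT1 read 838.5 in mutant 1, 786.6 in mutant 2 and 1749.2 in the wild type at 6 h, against 1771.2, 1771.2 and 1896.5 before cold. The part of these markers in the results was not tested. The Huayang wild type stood apart in 1 marker probe set for introduced genes (RPTR-Os-K01193-1_at), which read 3821.8 at 6 h and 2658.5 before cold there. The same probe set read 13835.2 to 17781.9 in the mutants and 11860.8 to 12539.4 in the overexpression lines, against 64.3 at 6 h and 18.6 before cold in the ZH11 control. Cold and cultivar results of AOS1, AOS2 and AOC are therefore also given without the wild type line. Comparisons of the mutants with the wild type rest on that line alone. The other marker probe sets for introduced genes but 1 read at most 73.9, which is used below as the upper end of the dim range. All readings of AOS1, AOS2 and AOC were above it.

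AOS1 encodes an allene oxide synthase. Its deposited intensity after 6 h of cold was 321.6 in OE2, 376 in OE28 and 308.7 in the ZH11 control, against 163.1, 193.1 and 149.5 in the same lines before cold. In the Huayang background AOS1 read 192.4 in mutant 1, 162.8 in mutant 2 and 162.5 in the wild type at 6 h, against 135.7, 128.9 and 112.1 in these lines before cold. All 6 lines were brighter after cold, and within each cultivar the arrays of the 6 h and the earlier samples did not overlap. Here and below, how many of all probe sets show such a gap between arrays or lines was not counted.

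AOS2 also encodes an allene oxide synthase. At 6 h it read 668 in OE2, 900.1 in OE28 and 768.8 in the ZH11 control, against 217.5, 361.9 and 269.9 in the same lines before cold. In the Huayang background AOS2 read 1180.1 in mutant 1, 982.7 in mutant 2 and 1300.3 in the wild type at 6 h, against 368.1, 462.4 and 437.8 before cold. Again every line was brighter after cold, with no overlap between the times in either cultivar.

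AOC encodes the allene oxide cyclase. It read 2997.1 in OE2, 3053.8 in OE28 and 2629.5 in the ZH11 control at 6 h, against 3308.1, 3330.3 and 2505.9 before cold. In the Huayang background it read 2787.8 in mutant 1, 2347.3 in mutant 2 and 2452.9 in the wild type at 6 h, against 3044.3, 2815.1 and 3006 before cold. The times overlapped in the ZH11 lines and did not overlap in the Huayang lines, where the 6 h arrays were the dimmer ones. The plot of the 3 genes by line shows both synthase genes brighter after cold in every line and the cyclase gene close to its earlier reading.

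**Figure D1:**
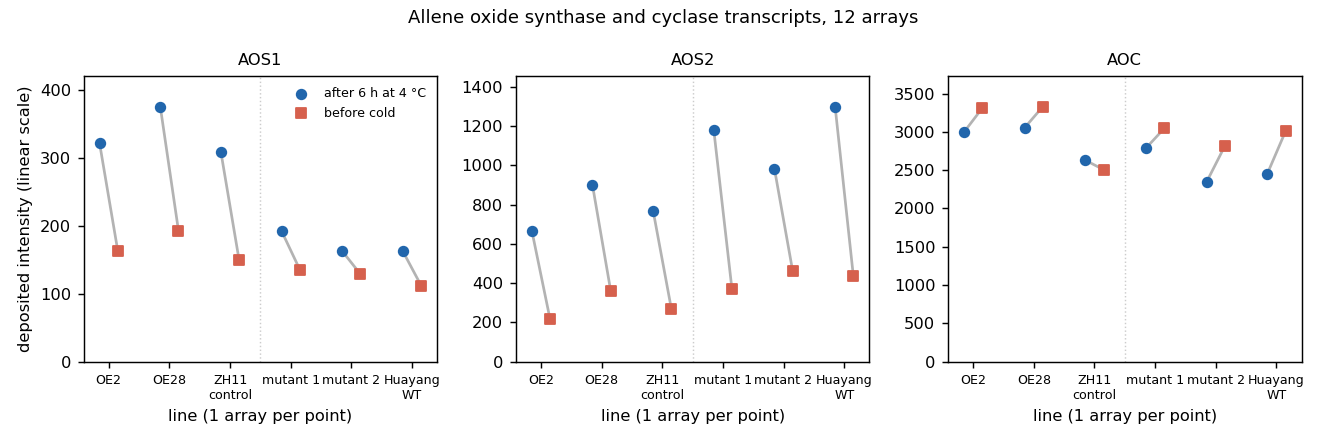
Deposited intensity (linear axis from 0) of AOS1, AOS2 and AOC in the 6 lines, 1 array per point, with blue circles for 6 h at 4 °C, red squares for before cold, a grey line joining the arrays of a line and a dotted line parting the ZH11 from the Huayang lines. AOS1 reached 308.7 to 376 in the ZH11 lines at 6 h and 162.5 to 192.4 in the Huayang lines, while AOS2 was brighter in the Huayang lines and AOC lay between 2347.3 and 3330.3 on all arrays.

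The effect of cold was tested over the 3 lines of each cultivar (3 arrays at 6 h against 3 before cold) on the scale log2(intensity + 16), on which changes of dim genes come out too small. Here and below, a call means an adjusted p under 0.05 in limma, by the Benjamini-Hochberg method over all 34355 probe sets tested, and each error is the standard error (SE) of the fit. In shoot and leaf RNA, fewer cells of a type and less RNA per cell cannot be told apart. AOS1 rose in the ZH11 lines by 1.06 (SE 0.10, adjusted p = 1.44e-05) and in the Huayang lines by 0.51 (SE 0.10, adjusted p = 0.00398). These log2 changes correspond to 2.08-fold and 1.42-fold. AOS2 rose by 1.51 in the ZH11 lines (SE 0.18, adjusted p = 9.6e-05) and by 1.47 in the Huayang lines (SE 0.18, adjusted p = 0.000123), or 2.86-fold and 2.77-fold.

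The cyclase gene AOC had a log2 change of -0.09 in the ZH11 lines (SE 0.10, 95% interval -0.30 to 0.13) and of -0.24 in the Huayang lines (SE 0.10, -0.45 to -0.03), and neither passed the test (adjusted p = 0.567 and 0.107). Thus 2 of the 3 genes were called in each cultivar, both higher, where 20.0% of all probe sets tested were called in the ZH11 lines (7.46% higher) and 19.3% in the Huayang lines (7.25% higher). With only 3 genes, these shares are a description of the genes and not of the pathway. Among the signed changes of all probe sets, AOS2 ranked above 98.8% in the ZH11 lines and 99% in the Huayang lines, and AOS1 above 98.2% and 96.1%.

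Each line was sampled at both times, and a fit with line as a replicate block added calls for AOC. With the line as a random block the Huayang change of -0.24 in AOC passed (adjusted p = 0.0153), in a fit that called 31.7% of all probe sets, and so did its change of -0.16 over all 6 lines (adjusted p = 0.0218, against 0.0821 without the block), where 46.7% were called. The call over all lines was also made, without the block, when the ZH11 control before cold was left out (-0.22, adjusted p = 0.00522) or the ZH11 control line at both times (-0.20, adjusted p = 0.00795). The Huayang call was likewise made without the ZH11 control before cold (adjusted p = 0.0321) and without that line (adjusted p = 0.0179). It was also made with line as a fixed block (adjusted p = 0.00491, 30.9% of probe sets called), in the model of 8 group means (0.0339) and with the Huayang arrays alone (0.0488). Over all lines the fixed block (adjusted p = 0.004, 47.7% called) and the 8 group means (0.0263) made the call as well. In all, 6 of 29 alternatives made the Huayang call and 5 of 28 the call over all lines. The others did not make it. Without the wild type line AOC changed by -0.22 in the Huayang lines (adjusted p = 0.347) and -0.14 over all lines (adjusted p = 0.212). The Huayang change was -0.22 without mutant 2 (adjusted p = 0.307) and -0.29 without mutant 1 (adjusted p = 0.172 in limma). By line, AOC changed by -0.13 in OE2, -0.14 in OE28 and 0.02 in the ZH11 control, and by -0.15 in mutant 1, -0.29 in mutant 2 and -0.29 in the wild type. It was thus lower after cold in 5 of the 6 lines.

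Over all 6 lines with cultivar as a term (6 arrays against 6), AOS2 rose by 1.49 (SE 0.13, adjusted p = 9.7e-07) and AOS1 by 0.78 (SE 0.10, adjusted p = 6.72e-05), beside 35.1% of probe sets called, 14.9% higher and 20.2% lower. Without the wild type line the Huayang rise was 0.47 for AOS1 (adjusted p = 0.0477) and 1.42 for AOS2 (adjusted p = 0.00328), and both calls were kept. The rise over all lines was then 0.82 for AOS1 (adjusted p = 0.000391) and 1.48 for AOS2 (adjusted p = 1.74e-05 in limma).

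Line by line, AOS1 was higher after cold by 1.08 in OE2, 1.05 in OE28 and 1.04 in the ZH11 control on the log2 scale. In the Huayang lines its rise was 0.53 in mutant 1, 0.41 in mutant 2 and 0.57 in the wild type, so every ZH11 line rose further than every Huayang line. For AOS2 the rises were 1.70 in OE2, 1.38 in OE28 and 1.46 in the ZH11 control, and 1.70 in mutant 1, 1.14 in mutant 2 and 1.58 in the wild type, which overlap.

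The test of the difference between the cultivars in the response to cold gave 0.55 for AOS1 (SE 0.14, 95% interval 0.24 to 0.87), unadjusted p = 0.00254 and adjusted p = 0.477 in limma. With line as a replicate block the same difference passed, with adjusted p = 0.0379 for a random and 0.0367 for a fixed block. These fits called 0.442% and 0.576% of all probe sets, against 0.102% without the block. Without the wild type line the difference was 0.59 (adjusted p = 1 without the block). For AOS2 the difference between the cultivars in the response was 0.04 (SE 0.26, 95% interval -0.53 to 0.61). For AOC it was 0.16 (SE 0.14, -0.14 to 0.45), and neither passed with or without the block. Without the wild type line these differences were 0.09 for AOS2 and 0.13 for AOC.

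The levels of the cultivars were set against each other at each time, ZH11 lines over Huayang lines, 3 arrays each. The ZH11 set holds the control beside both overexpression lines, and the Huayang set the wild type beside both mutants. Cultivar and genotype set thus cannot be told apart in any cultivar comparison, the difference in cold response included. Between the control and wild type lines alone, AOS1 read 308.7 in the ZH11 control and 162.5 in the Huayang wild type at 6 h. Before cold it read 149.5 and 112.1, with 1 array each and no test. The wild type line is the line that stood apart in the marker for introduced genes. At 6 h AOS1 averaged 335.4 ± 35.7 in the ZH11 lines and 172.6 ± 17.2 in the Huayang lines (SD of intensity, n = 3 each), a log2 difference of 0.93 (SE 0.10, adjusted p = 0.000111 in limma). Before cold AOS1 averaged 168.6 ± 22.3 in the ZH11 lines and 125.6 ± 12.1 in the Huayang lines (SD, n = 3 each). That earlier log2 difference of 0.38 (SE 0.10) had an adjusted p of 0.0567 in limma, and it passed with line as a replicate block (adjusted p = 0.0365, 5.66% of probe sets called). Without the wild type line the AOS1 difference was 0.92 at 6 h (adjusted p = 0.0018) and 0.33 before cold (adjusted p = 0.236).

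AOS2 ran the other way in level. It averaged 779 ± 116 in the ZH11 lines and 1154 ± 160 in the Huayang lines at 6 h, and 283.1 ± 73.1 and 422.8 ± 48.9 before cold (SD, n = 3 each). The log2 differences of -0.53 (SE 0.18, 95% interval -0.93 to -0.12) at 6 h and -0.57 (SE 0.18, -0.97 to -0.17) before cold did not pass (adjusted p = 0.0976 and 0.116 in limma), although the arrays of the cultivars did not overlap at either time. Each passed in 1 of 26 alternatives. The difference before cold passed when OE28 before cold was left out (-0.74, adjusted p = 0.0477), with up to 0.324 in the others. The 6 h one passed when OE2 before cold was left out (adjusted p = 0.0407), with up to 0.313 in the others. That array is outside the 6 h comparison, and the estimate stayed at -0.53. Without the wild type line the differences were -0.42 at 6 h (adjusted p = 0.313) and -0.51 before cold (adjusted p = 0.306 in limma).

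AOC averaged 2893 ± 230 in the ZH11 lines and 2529 ± 230 in the Huayang lines at 6 h, and 3048 ± 470 and 2955 ± 123 before cold (SD, n = 3 each). Its log2 differences were 0.18 (SE 0.10, adjusted p = 0.28) and 0.03 (SE 0.10, adjusted p = 0.953). Without the ZH11 control line at both times the 6 h difference was 0.25 and passed in limma (adjusted p = 0.048). Without the wild type line the AOC differences were 0.18 at 6 h (adjusted p = 0.456) and 0.04 before cold (adjusted p = 0.925). In the main comparison 1 of the 3 genes was called at 6 h and 0 before cold, where 10.6% (4.76% higher, 5.84% lower) and 5.26% of all probe sets were called. Before cold 5677 probe sets had an unadjusted p below 0.05, AOS1 (0.00317) and AOS2 (0.00957) among them.

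In order of level, AOS1 was highest in the ZH11 lines at 6 h. The Huayang lines at 6 h (162.5 to 192.4) and the ZH11 lines before cold (149.5 to 193.1) came next and overlapped, and the Huayang lines before cold (112.1 to 135.7) were lowest. AOS2 was ordered as Huayang at 6 h, ZH11 at 6 h, Huayang before cold and ZH11 before cold, with no overlap between neighbours. The gap between the last pair was small, from 368.1 to 361.9, and as given above neither of the cultivar differences passed the test.

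Overexpression of OsMYB30 was compared with the ZH11 control (2 arrays against 1 at each time, with the spread taken from a model of all 8 groups, so that a lone control array is taken to spread as the paired arrays of other groups do). None of the 3 genes was called, where 0.311% of all probe sets were called at 6 h and 0.571% before cold. AOS1 differed by 0.12 (SE 0.16, 95% interval -0.25 to 0.49) at 6 h and 0.09 (SE 0.16, -0.28 to 0.47) before cold. AOS2 differed by -0.02 (SE 0.31, -0.73 to 0.68) at 6 h and -0.10 (SE 0.31, -0.80 to 0.61) before cold, and the control lay between OE2 and OE28 at both times.

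For AOC both overexpression lines stood above the control at both times, in deposited intensity and after normalization. AOC read 2997.1 and 3053.8 in these lines against 2629.5 in the control at 6 h, and 3308.1 and 3330.3 against 2505.9 before cold. Its log2 difference was 0.19 (SE 0.10, adjusted p = 0.58) at 6 h and 0.35 (SE 0.10, adjusted p = 0.125) before cold. Averaged over the times (4 arrays against 2) it was 0.27 (SE 0.07, 95% interval 0.10 to 0.43, adjusted p = 0.0744), in a comparison that called 4.06% of all probe sets. That mean passed in limma with arrays centred on their medians (0.34, adjusted p = 0.0408), with the ZH11 arrays alone (adjusted p = 0.0337), and without mutant 1 or mutant 2 at 6 h (adjusted p = 0.0307 each). It did not pass under the other alternatives, with an adjusted p of 0.14 with line as a random replicate block and up to 0.181 with an array left out. An unadjusted limma p below 0.05 was reached by 8511 probe sets in that mean, AOC among them (0.00553).

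The osmyb30 mutants were compared with the Huayang wild type in the same model, where limma called 0 of the 3 genes and 0.0204% of all probe sets at 6 h and 0.00291% before cold, and 0.0262% as a mean of both times. An unadjusted p below 0.05 was reached by 3271 probe sets at 6 h and 1736 before cold, and by none of the 3 genes. The log2 differences were 0.04 (SE 0.16) at 6 h and 0.14 (SE 0.16) before cold for AOS1, and 0.02 (SE 0.10) and -0.05 (SE 0.10) for AOC. For AOS2 they were -0.32 (SE 0.31, 95% interval -1.02 to 0.38) at 6 h and -0.16 (SE 0.31, -0.87 to 0.54) before cold. The intervals for AOS2 are wide in both genotype comparisons, which do not show that the genotypes are alike.

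Whether genotype altered the response to cold was tested as an interaction. In the overexpression lines it was 0.03 (SE 0.23) for AOS1, 0.07 (SE 0.43) for AOS2 and -0.16 (SE 0.14) for AOC, and in the mutants it was -0.10 (SE 0.23), -0.16 (SE 0.43) and 0.07 (SE 0.14). limma called 0 probe sets in either interaction, with 1401 and 1006 below an unadjusted p of 0.05, so that these are values only. The plot of estimates shows the cold effects of AOS1 and AOS2 apart from 0. Of the genotype effects, the interval of AOC for overexpression before cold (0.11 to 0.58) also lay above 0, without a call.

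**Figure D2:**
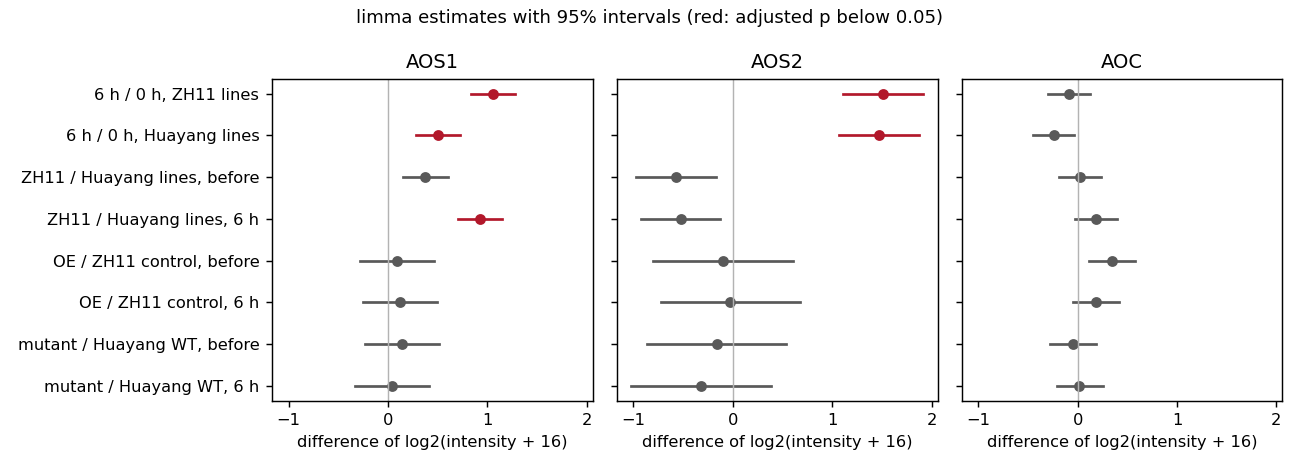
limma estimates (points) and 95% intervals (bars) of the difference of log2(intensity + 16) for AOS1, AOS2 and AOC in 8 comparisons, each named with the upper group of the difference before the slash; red marks an adjusted p below 0.05. After cold AOS2 was higher by 1.51 and 1.47 and AOS1 by 1.06 and 0.51 in the ZH11 and Huayang lines. The AOS1 difference between the cultivars at 6 h was 0.93, while no genotype difference passed.

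The next enzyme of the pathway is OPDA reductase, whose peroxisomal form acts in jasmonate synthesis. The name OPR7 fits LOC4345762, also called OsOPR7 and OPR13, and LOC4329684, also called OsOPR8. LOC4345762 was even across the arrays, at 1358.1 in OE2, 1502 in OE28 and 1423.2 in the ZH11 control at 6 h, against 1353, 1430 and 1339.7 before cold. In the Huayang lines it lay between 1457 and 1522.4 at 6 h and between 1442.1 and 1496.3 before cold. Its log2 change with cold was 0.05 over all lines (SE 0.04, adjusted p = 0.309), and it was called in none of the comparisons. LOC4329684 lay close to the dim range, at 83.2 to 115.5 at 6 h and 90.2 to 138.6 before cold, with a change of -0.04 over all lines (SE 0.07, adjusted p = 0.71).

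The name OPR1 fits LOC112936094, which is paired with no probe set, and LOC4340490. LOC4340490 was uneven across lines. At 6 h it read 224.6 in OE2, 261.8 in OE28 and 381.5 in the ZH11 control, against 218.2, 206.2 and 228.4 before cold. In the Huayang background it read 227.8 in mutant 1, 160.8 in mutant 2 and 127.3 in the wild type at 6 h, against 194.5, 160.9 and 173.6 before cold. At 6 h it was 0.74 higher in the ZH11 than in the Huayang lines on the log2 scale (SE 0.20, adjusted p = 0.0314). That call was lost without the ZH11 control (0.52, adjusted p = 0.104), OE28 (0.79, adjusted p = 0.0695), mutant 2 (0.71, adjusted p = 0.0821) or the wild type (0.59, adjusted p = 0.127) at 6 h. Its rise of 0.48 with cold in the ZH11 lines (SE 0.20, adjusted p = 0.107) passed with line as a random replicate block (adjusted p = 0.0229, 35.1% of probe sets called) and without OE2 at 6 h (0.65, adjusted p = 0.0465). That rise also passed in limma with line as a fixed block (adjusted p = 0.0149) and in the model of 8 group means. Over all lines its change of 0.26 passed with the fixed block only (adjusted p = 0.0342, 47.7% of probe sets called). At 6 h LOC4340490 differed by -0.65 between the overexpression lines and their control and by 0.46 between the mutants and the wild type, without a call.

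The other family members of this enzyme came from a list of OPR names, of which 4 genes had a probe set; LOC4345762 and LOC4329684 are among them, and LOC107279821 (OPR12) was dim at 10.7 to 14 and did not pass the filter on low values. The remaining one, LOC4340486 (OPR10, also OsOPR4), parted the cultivars. It read 16.8 to 20.7 on all 6 ZH11 arrays, within the dim range. In the Huayang background it read 1029.6 in mutant 1, 626.7 in mutant 2 and 591.4 in the wild type at 6 h, against 506, 405.8 and 265 in the same lines before cold. The OPR10 reading was thus at least 8.25-fold lower in the ZH11 lines at 6 h and at least 4.4-fold lower before cold, with readings under 73.9 set to 73.9. These bounds were not tested, and limma on the values without that limit gave adjusted p = 4.63e-08 at 6 h and 7.1e-07 before cold. The probe set passed the filter on low values only through its Huayang readings, so these p-values are no further support for the gap. Whether the probe set matches the gene alike in both cultivars was not tested. In the Huayang lines OPR10 rose with cold by 0.98 (SE 0.21, adjusted p = 0.00563).

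**Figure D3:**
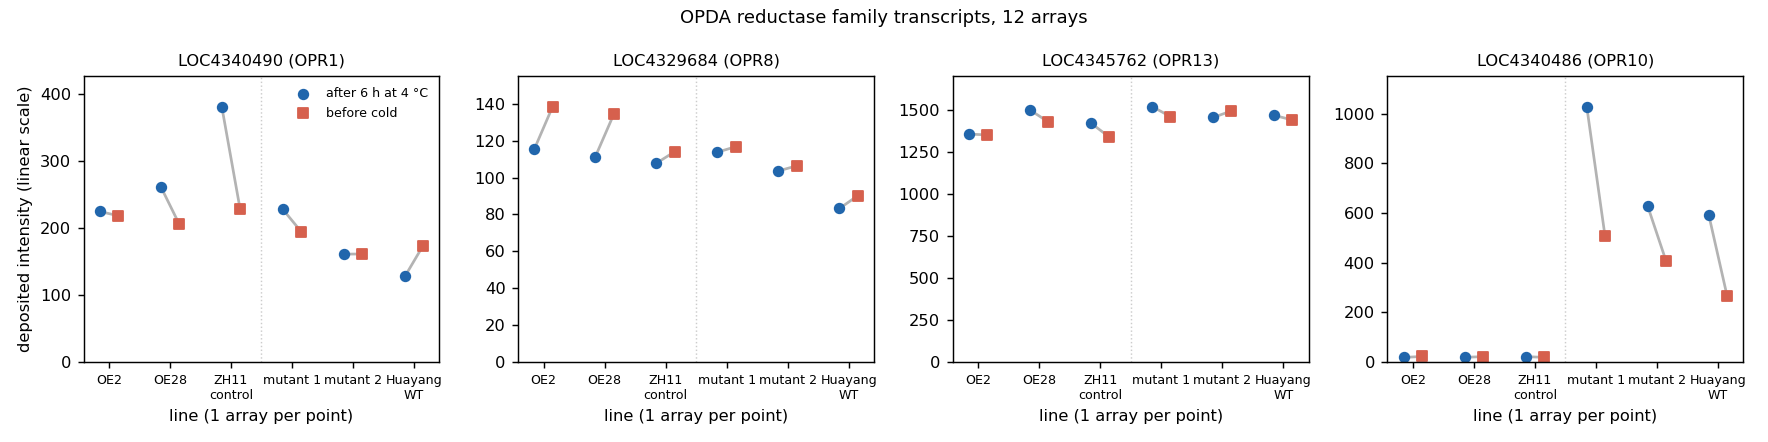
Deposited intensity (linear axes from 0, a different scale in each panel) of 4 OPDA reductase family genes in the 6 lines, 1 array per point, with blue circles for 6 h at 4 °C and red squares for before cold. LOC4340486 (OPR10) stayed at 16.8 to 20.7 in the ZH11 lines and reached 591.4 to 1029.6 in the Huayang lines at 6 h, while LOC4345762 (OPR13) was even across lines.

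Upstream of the synthases, a list of lipase and lipoxygenase names gave 7 genes with a probe set, 6 of which passed the filter. Over all lines and 35.1% of probe sets called, 1 of the 6 rose with cold and 2 fell, with a median change of 0 beside 0.007 for all probe sets tested. The gene that rose was CM-LOX1 (LOC4345993), a chloroplast lipoxygenase gene, by 1.00 (SE 0.14, adjusted p = 0.000119). Its intensity at 6 h was 850.3 in OE2, 1200.7 in OE28 and 1286.1 in the ZH11 control, against 437.6, 805.6 and 543.5 before cold. In the Huayang lines CM-LOX1 read 2494.7, 2401.7 and 2494 in mutant 1, mutant 2 and the wild type at 6 h, against 1077.8, 1399.3 and 1178.7 before cold. All 6 lines were brighter at 6 h, and the Huayang lines were brighter than the ZH11 lines at each time.

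The lipoxygenase gene LOX2 fell by 0.44 (SE 0.07, adjusted p = 0.00028). The other gene that fell, by 0.16 (SE 0.04, adjusted p = 0.00367), was reached through the name EG2, but the annotation also calls it TIFY3 and JAZ1, a jasmonate repressor rather than a lipase or lipoxygenase. The gene reached through DAD1 (LOC4335701, also DAD-1) has no name that marks it as a lipase either, and its change was not called.

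CM-LOX1 and its relative CM-LOX2 (LOC4345994) shared with AOS2 the lower readings in the ZH11 lines. At 6 h CM-LOX1 was lower there by a log2 difference of -1.13 (SE 0.21, adjusted p = 0.00426) and CM-LOX2 by -1.50 (SE 0.25, adjusted p = 0.00229), 2 of the 6 genes tested, beside 10.6% of all probe sets. Before cold the differences were -1.06 (SE 0.21, adjusted p = 0.00998) and -1.20 (SE 0.25, adjusted p = 0.0142). Before cold both lost their call without mutant 2 (adjusted p = 0.0553 for CM-LOX1 and 0.0729 for CM-LOX2), and CM-LOX2 also without the wild type array (adjusted p = 0.063). Without the wild type line at both times CM-LOX1 had an adjusted p of 0.059 and CM-LOX2 of 0.0807 before cold. The 2 other CYP74 genes with a probe set, AOS3 and AOS4, read 11.2 to 25.6 on all arrays and did not pass the filter.

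Downstream, JAR1 (LOC4339756), whose enzyme joins jasmonate to isoleucine, fell with cold by 0.26 over all lines (SE 0.05, adjusted p = 0.00106). It was the only conjugation or turnover gene of the list with a probe set, as MFP (LOC4328997), a beta-oxidation enzyme gene, was for that list. MFP had a log2 change of -0.11 and was not called (adjusted p = 0.173). Of 5 genes of reception and response, 4 fell over all lines and 0 rose, beside 35.1% of all probe sets called and 20.2% called lower. The median change of the 5 was -0.28, against 0.007 for all probe sets tested.

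They were COI1B by 0.33 (SE 0.05, adjusted p = 0.000304) and COI1A by 0.28 (SE 0.07, adjusted p = 0.00612), which encode F-box receptors, NINJA1 by 0.18 (SE 0.04, adjusted p = 0.00312), an adaptor of the JAZ repressors, and JAMYB. JAMYB, a jasmonate-inducible MYB factor gene, read 33.9 to 70 at 6 h, within the dim range, against 87.3 to 161.1 before cold (adjusted p = 7.63e-06). It was lower by at least 0.32 in the ZH11 lines and at least 0.71 in the Huayang lines on the log2 scale. COI2 was the member of this list that was not called. Without the block, the calls over all lines named here for CM-LOX1, LOX2, TIFY3, JAR1, COI1A, COI1B, NINJA1 and JAMYB were kept under every alternative run.

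**Figure D4:**
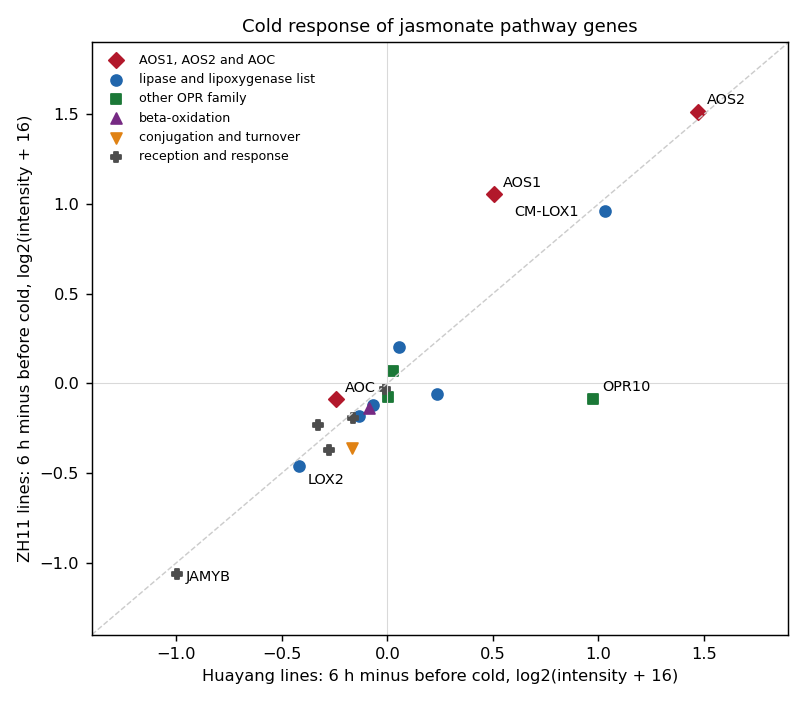
Change with 6 h of cold in the ZH11 lines (vertical axis) against that in the Huayang lines (horizontal axis). Both are 6 h minus before cold on the log2(intensity + 16) scale. Shown are AOS1, AOS2, AOC and each gene of the pathway lists that passed the filter, those reached through EG2 and DAD1 included. LOC4340490 is on no list and is not shown, and the dashed line marks equal change. AOS2 (1.51 and 1.47) and CM-LOX1 lie near the line at the upper right, AOS1 (1.06 and 0.51) lies above it, OPR10 below it, and JAMYB at the lower left.

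Genes with a published name whose readings ran most like those of each member over the 12 arrays were named by Pearson's r on the normalized log2 values, among 2665 probe sets. The arrays share lines, times and cultivars, so r is a description. Nearest to AOS1 were GLU1 (LOC4332724, r = 0.926), AARE2 (LOC4348628, r = 0.924) and D53-L (LOC4351252, r = 0.904), the last at 25.4 to 50.2 in the dim range. GLU1 read 740.9, 869.3 and 858.3 at 6 h and 384.9, 381.1 and 383 before cold in OE2, OE28 and the ZH11 control. In mutant 1, mutant 2 and the wild type it read 566.6, 587 and 487.3 at 6 h and 386.2, 372.9 and 338.5 before cold.

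Nearest to AOS2 were CDKE-1 (LOC4349519, r = 0.978), ASB1 (LOC4336076, r = 0.966) and NAC45 (LOC4349650, r = 0.966). Nearest to AOC were CYP71P1 (LOC4351945, r = 0.91), OsYSL14 (LOC9267947, r = 0.887) and OsPP2C52 (LOC4339763, r = 0.885). The genes nearest to the 2 synthase genes were thus different ones.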

How the data were processed

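Values are probe set intensities on a linear scale as deposited by the authors. Their summary method and scaling are not given in the sources used here. Biotin-labelled RNA of 12 samples had been hybridised, 1 array each, per the labels. Of all probe sets 123 hybridisation controls were left out. Intensities were taken as log2(value + 16) and quantile normalized, since array quartiles differed by up to 0.238. A probe set was kept if its mean reached the 40th percentile, and the resulting 34355 were tested in R 4.3.3 with limma 3.58.1 (lmFit, eBayes with trend, Benjamini-Hochberg, threshold 0.05).

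Genotype was tested in a model of 8 group means (4 residual degrees of freedom). Cold and cultivar were tested in a model of 4 group means with lines as replicates (8 residual degrees of freedom), and cold over all lines with cultivar as a term. The labels tie the arrays of a line across times. Deviations from the group mean, compared between the times of 1 line, had a correlation of 0.517 for overexpression and 0.429 for mutants. Line was therefore also fitted as a replicate block (correlation 0.334 in the model of 8 groups and 0.421 in that of 4), given where it changed a call.

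A RefSeq gene table supplied names, and a probe-to-gene table paired 22436 probe sets with 1 gene. No genome positions or sequences are given, since the build of the array design was not matched here. A gene of several probe sets in a list entered with its brightest. All 3 members, all genes sharing the 2 names left out, the 3 nearest genes by r and up to 3 called genes per list were to be named; NINJA1, the fourth called gene of its list, is named because the count was small. "Published name" was read as a symbol or synonym other than a number, since few genes have another symbol. The members and lists were chosen with earlier results of these data known.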

Additional observations from a re-analysis of the deposited data

Results flagged for a closer look

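The response of AOS1 to cold differed between the ZH11 and the Huayang lines by 0.55 on the log2 scale in the test of the difference with line as a block, random or fixed (adjusted p = 0.0379 and 0.0367 in limma). Cultivar and genotype set cannot be told apart in this difference. All 3 ZH11 lines rose further, by 1.04 to 1.08, than all 3 Huayang lines, which rose by 0.41 to 0.57. How many of all probe sets part by line in this way was not counted. Without the block the adjusted p was 0.477 in limma, and 0.53 or more with a line left out.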

How the results depend on the processing

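Alternatives were the values as deposited, arrays centred on their medians, no filter, a 60th percentile filter, pseudocounts of 1 and 64, no trend, line as a block, the 8 group means for cold, the arrays of 1 cultivar alone, each array left out, and, chosen after seeing the data, each line left out at both times. Of 966 values of AOS1, AOS2 and AOC under them, 943 stayed on their side of the threshold, 23 newly passed, 0 lost their call and 0 changed sign while called. The cold calls of AOS1 and AOS2 held in all, with AOS1 at 0.886 to 1.14 in the ZH11 and 0.389 to 0.557 in the Huayang lines, and AOS2 at 1.31 to 1.69 and 1.36 to 1.64.

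For overexpression as a mean of both times, 1 gene (AOC) was called instead of 0 with median centring and with ZH11 arrays alone, and 0 to 1 with an array left out. For the cultivar interaction 1 (AOS1) was called instead of 0 with either replicate block. Between the cultivars before cold 1 (AOS1) was called instead of 0 with the 60th percentile filter (adjusted p = 0.0471), without trend (0.0482) and with the replicate block (0.0365), and 0 to 1 with an array left out. At 6 h 2 were called instead of 1 without the ZH11 control line, and 1 to 2 with an array left out. The cause was not tested. The block changed no other call of the 3 genes than these and those of AOC with cold.

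Counts over all probe sets moved more. The interaction had 35 calls, against 152 and 198 with line as a random or fixed block, 13 to 51 with an array left out and 6 to 28 with a line left out. Cold had 6874 calls in the ZH11 lines, against 12060 and 11608 with the blocks and 3519 to 6344 with a line left out. It had 6621 in the Huayang lines, against 10892 and 10603, and 3911 to 7669. For overexpression there were 196 before cold (320 as deposited, 621 with median centring, 60 to 294 with an array left out), 107 at 6 h (35 to 132) and 1395 for the mean of both times (425 with the block, 309 to 1708 with an array left out). For the mutants there were 1 before cold (0 to 3 over all alternatives), 7 at 6 h (1 to 84) and 9 for the mean (3 to 30). Between the cultivars there were 1806 before cold (1017 to 2435) and 3640 at 6 h (1971 to 4289). Each genotype interaction had 0 (0 to 1). A genotype difference has no value when its single control or wild type array is left out. Low signal limits LOC4329684, OPR10 in the ZH11 lines and JAMYB.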
